A study of Mus musculus with 4 samples.

Results

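The Olfr1297 population is the set of mature olfactory sensory neurons (OSNs) to which the study assigned the odorant receptor Olfr1297, the receptor with the most transcripts in the neuron. Its members were the cells with that receptor identity in the deposited cell table, 56 of the 9791 mature OSNs with a receptor identity and of 15859 retained cells. They came from all 4 mice, with 19, 16, 10 and 11 neurons in mice 1 to 4. The mice were 8-week-old C57BL/6 males at rest, and the labels name no treatment or transgene. Live nucleated cells (stained by Hoechst and not by DRAQ7) were sorted from the dissociated main olfactory epithelium, and each mouse gave 1 droplet library of 3′ transcript ends. Each transcript was counted by its unique molecular identifier (UMI). The mouse was the replicate (n = 4), and the labels did not name a batch. The neurons of 1 mouse share that animal and its library, so they were summed per mouse before any test.

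Each mature OSN transcribes 1 allele of 1 odorant receptor gene out of a very large family, and the axons of all neurons with the same receptor meet in a few glomeruli of the olfactory bulb. The receptor also sets part of the rest of the transcriptome. Basal signalling of the receptor through cyclic AMP, and the activity of the neuron, tune the levels of cell adhesion and axon guidance molecules such as Kirrel2, Kirrel3 and the ephrin receptors, by which axons are sorted. The levels of the calcium-binding protein S100a5 and of Pcp4l1 are also known to follow the activity of the neuron. The 3 genes used as markers of the population encode surface or secreted proteins: Adam28 is a membrane-anchored metalloprotease, Ptn (pleiotrophin) a secreted heparin-binding growth factor, and Mslnl a relative of the surface protein mesothelin.

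Olfr1297 (ENSMUSG00000094858) lies on the minus strand of chromosome 2, at positions 111615233 to 111626497 of GRCm38 in the GENCODE M21 annotation, within a large cluster of receptor genes. Its coding part of 936 bases is in 1 exon, between 111621137 and 111622072, and gives a protein of 312 residues. Among 1157 other receptor proteins the closest was that of Olfr1298, 29.3 kb away, with 88.5% identical residues, but that receptor had 3 neurons. Of the 313 receptors with at least 10 neurons and at least 1 in every mouse, Olfr1301 was the closest by protein (71.2% identity, 136 kb away on the plus strand) and also the closest by position. The next by position was Olfr1305 (50.0% identity, 252 kb away on the minus strand). The first 150 coding bases of these 4 genes, from the start codon on, are shown because the last 2 are compared with the population below. The libraries read 3′ transcript ends, so these bases do not show whether reads of the copies could be told apart. They are written 5′ to 3′ on the strand of the gene, from the GENCODE M21 transcripts, and capitals mark the bases that differ from Olfr1297:
Olfr1297: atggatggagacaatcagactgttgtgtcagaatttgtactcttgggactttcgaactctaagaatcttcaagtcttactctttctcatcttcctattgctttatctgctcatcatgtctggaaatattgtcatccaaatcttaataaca
Olfr1298: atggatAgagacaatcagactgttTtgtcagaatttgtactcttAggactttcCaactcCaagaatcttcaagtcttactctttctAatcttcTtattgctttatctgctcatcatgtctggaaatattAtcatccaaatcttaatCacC
Olfr1301: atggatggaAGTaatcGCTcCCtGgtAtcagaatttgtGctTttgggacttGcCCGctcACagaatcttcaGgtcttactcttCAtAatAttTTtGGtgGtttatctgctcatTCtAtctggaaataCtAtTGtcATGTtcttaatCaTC
Olfr1305: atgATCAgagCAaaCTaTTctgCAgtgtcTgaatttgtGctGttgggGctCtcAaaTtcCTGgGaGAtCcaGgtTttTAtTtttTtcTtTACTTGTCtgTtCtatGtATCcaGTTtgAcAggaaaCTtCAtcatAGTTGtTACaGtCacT
These stretches lie on chromosome 2 at 111621923 to 111622072 for Olfr1297, 111645846 to 111645995 for Olfr1298, 111754251 to 111754400 for Olfr1301 and 111873704 to 111873853 for Olfr1305. Olfr1298 differed from Olfr1297 at 10 of the 150 bases, Olfr1301 at 42 and Olfr1305 at 67. Over the whole coding part, 76 of 936 bases differed in Olfr1298, 197 in Olfr1301 and 394 in Olfr1305, and the longest run of bases shared with Olfr1297 was 64, 32 and 12 bases. The 56 neurons held no UMI of Olfr1298 or of the other close relatives Olfr1294 and Olfr1295.

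The receptor was abundant in every neuron of the population. The median was 62, 53.5, 82 and 52 Olfr1297 UMIs per neuron in mice 1 to 4, the lowest neuron had 15 and the highest 131. Summed per mouse, Olfr1297 made up 126, 120, 135 and 126 of every 10000 UMIs, so that the 4 mice lay close together. The median of 60 UMIs over all neurons can be set against medians from 8 to 326 for the assigned receptor in the 353 populations with at least 10 neurons, of which 77 lay at or above Olfr1297. Among these the population was the 6th largest, where the median size was 16 neurons. A second receptor with at least 1 UMI was seen in 9 of the 56 neurons (16.1%), against 31.9% of the other neurons compared. These were 12 different receptors with 18 UMIs in all, and the highest, Olfr1162, had 6 UMIs in 1 neuron. Depth was similar in both groups, with a median of 4860 UMIs and 2303.5 genes per neuron in the population and 4694 UMIs and 2237 genes in the others. The median share of mitochondrial UMIs was 1.30%, 1.74%, 0.616% and 0.643% in the Olfr1297 neurons of mice 1 to 4, and 1.07%, 1.55%, 1.30% and 1.39% in the others.

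In the clustering that the study made without receptor genes, 52 of the 56 neurons (92.9%, exact 95% interval 82.7 to 98.0%, counting error only) were in the cluster named Ventral, and the other 4 were in the cluster named Calb2+ V. In the study the cluster named Ventral is the part of the ventral neurons without the markers Dlg2, Calb2, Cd55 and Cd36. The clusters with these markers, such as Calb2+ V., are ventral too, and "other Ventral neurons" below means those of the Ventral cluster only. Neurons of the ventral zone sit in the lower part of the nasal cavity and are known for the transcription factor Nfix, whereas dorsal neurons carry the enzyme Nqo1. These levels, like all that follow, are UMIs per 10000 UMIs in the summed neurons of a mouse. Omp, the protein that marks mature OSNs, was at 74.3, 80.5, 80.4 and 70.8 in mice 1 to 4, and Adcy3, the adenylyl cyclase of odorant transduction, at 14.0, 14.0, 11.7 and 12.0. Nfix was at 4.68, 6.20, 4.16 and 7.77, and Nqo1 had 0 UMIs in all 4 mice. Omp, Adcy3 and Nfix overlapped between these neurons and the other Ventral neurons described next. The study's labels were taken as given, and this overlap is no test of them. Tppp3 and Nfia, also in the list of dorsal and ventral position, were lower in the population on 1 UMI each, as given below. Of the lists of genes of other cell types, the sustentacular, microvillar, basal, immune, gland and ensheathing lists each summed to at most 0.721 in any mouse, with 6 of 10, 7 of 10, 9 of 10, 8 of 11 and 10 of 12 members at 0 UMIs. The list of blood genes is not reported here. The defining basal markers Krt5, Krt14 and Trp63 and the immune marker Ptprc were among those at 0.

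The population was compared with the other 4548 neurons of the Ventral cluster, which carried 571 other receptors. The question was which genes other than receptors set the Olfr1297 neurons apart from neurons of the same cluster. The sums held 98263, 69359, 62566 and 45054 UMIs for the population in mice 1 to 4, and from 4871167 to 6614034 for the others, so that the precision was set by the population. Of 10146 genes tested with edgeR's quasi-likelihood test and the mouse as a block, 72 (0.710%) passed a Benjamini-Hochberg adjusted p of 0.05, 29 higher (0.286%) and 43 lower (0.424%) in Olfr1297 neurons, and 682 had an unadjusted p under 0.05. The median log2 fold change over all genes tested was −0.03. Of the 72 genes, 71 moved the same way in all 4 mice, and in 68 the 4 values of the population lay all above or all below those of the others, which was so for 11.5% of all genes tested. When the scaling factors were taken from all genes tested instead of from genes with enough counts in the smallest sum, the median over all genes moved by −0.14 and the calls became 14 higher and 84 lower. With DESeq2's Wald test there were 14 higher and 20 lower, and among the genes that the naming rule picked the calls of Arpc4, Avp, Cadps2, Cd55, Epha7, Id4, Jun, Jund, Negr1, Nfia, Nqo1, Olig1, Pcdh8, Ppp3ca, Pyurf, Rtp1, Syt4 and Tppp3 were lost. In neurons thinned to 3000 UMIs there were 15 higher and 19 lower, and the calls lost among the same genes were those of Cadps2, Dhrs3, Epha7, Id4, Jun, Jund, Negr1, Nfia, Nqo1, Olig1, Pcdh8, Ppp3ca, Pyurf, Rtp1, Syt4 and Tppp3.

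**Figure D1:**
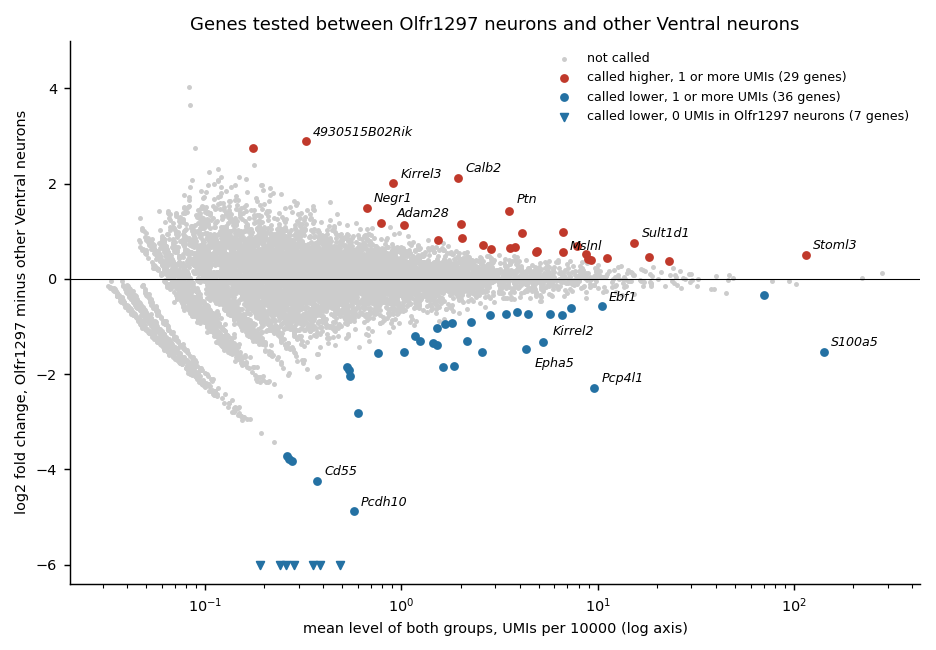
Each point is a gene: the x axis gives the mean level of both groups in UMIs per 10000 (log axis), and the y axis the log2 fold change of Olfr1297 neurons against the other Ventral neurons. Red and blue points are the 29 genes called higher and the 43 called lower, of which the 7 with 0 UMIs in the population are drawn as triangles at the lower edge; genes at 0 UMIs that were not called are left out, and the fitted values of genes with few UMIs depend on the prior count.

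The 3 markers were higher in the Olfr1297 neurons of every mouse, and their groups did not overlap, which was so for 11.5% of all genes tested. They were chosen as markers with earlier results of these data known. Their direction and p-values therefore describe them and are no independent test. Adam28 (chromosome 14, 68606027 to 68655842, minus strand) was at 3.15, 2.02, 3.68 and 2.22 UMIs per 10000 in mice 1 to 4, against 1.27, 1.20, 1.31 and 1.27 in the others, a log2 fold change of 1.14 ± 0.20 (SE, adjusted p = 3.39e-06). Ptn (chromosome 6, 36714929 to 36810220, minus strand) was at 5.80, 3.89, 6.55 and 4.44, against 2.08, 1.73, 1.77 and 2.10, a log2 fold change of 1.43 ± 0.15 (adjusted p = 2.76e-18). Mslnl (chromosome 17, 25736042 to 25748330, plus strand) was at 8.65, 9.37, 9.11 and 8.21, against 4.48, 4.41, 4.03 and 4.88, a log2 fold change of 0.99 ± 0.12 (adjusted p = 2.14e-14). The lowest mouse of the population was above the highest of the others in each case. At the level of single neurons, Mslnl had at least 1 UMI in 56 of 56 Olfr1297 neurons (100%, exact 95% interval from 93.6%), Ptn in 47 (83.9%) and Adam28 in 38 (67.9%). In the other Ventral neurons these shares were 69.6%, 39.0% and 35.1%. Microvillar Mv2 cells, which should lack these genes, had a UMI in 1.30%, 1.47% and 1.02% of cells at a median of 5081 UMIs. With every neuron thinned to 3000 UMIs, which left 49 and 3754 neurons, the shares of Mslnl, Ptn and Adam28 were 93.9%, 75.5% and 61.2% in the population and 59.6%, 32.3% and 27.6% in the others. All 3 markers were detected together in 33 of the 56 neurons (58.9%), against 17.1% of the others, and no Olfr1297 neuron lacked all 3, against 21.7%.

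**Figure D2:**
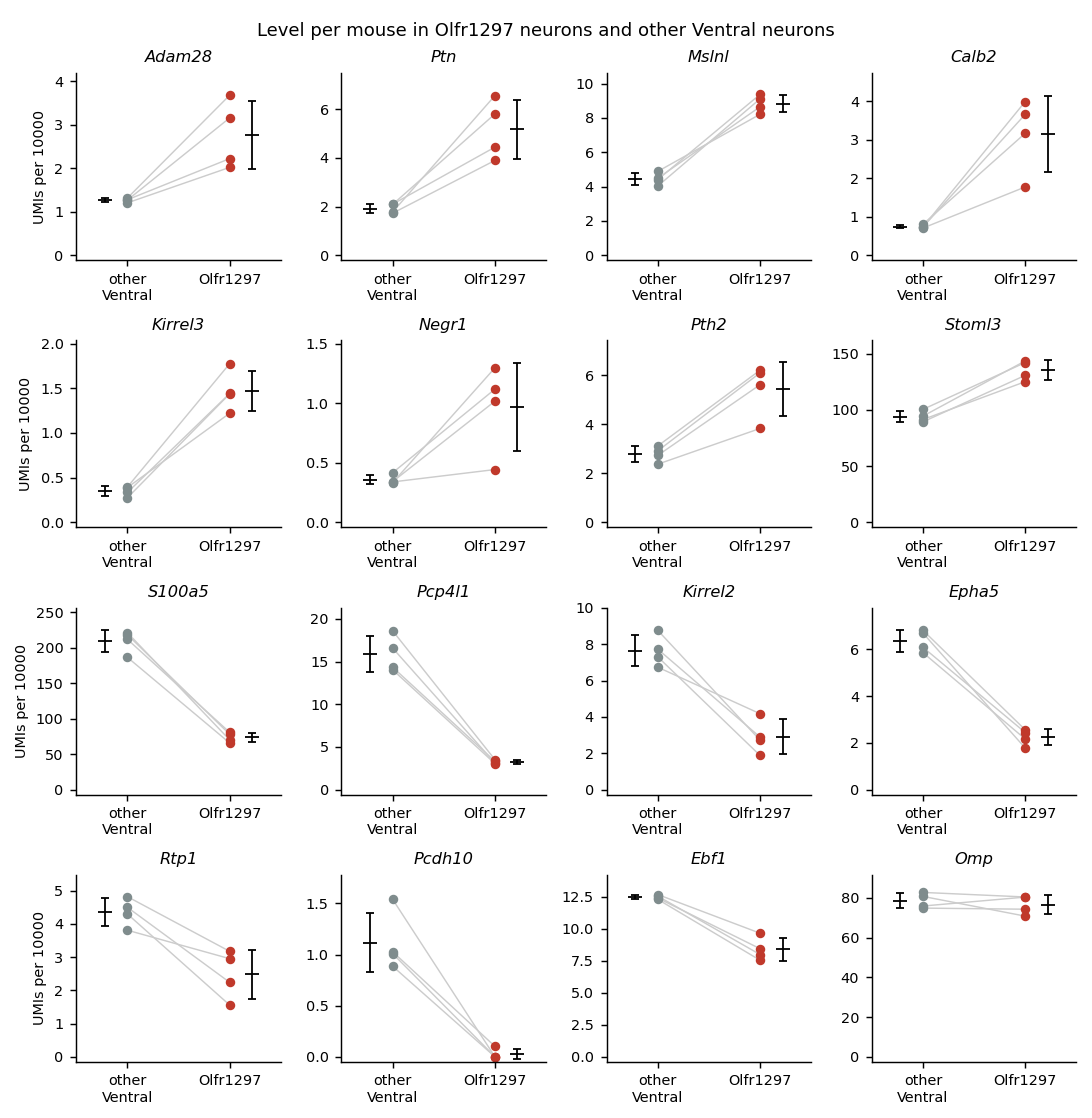
Levels of 16 genes in UMIs per 10000 (y axis, from 0) in the other Ventral neurons (grey) and the Olfr1297 neurons (red), with 1 point per mouse, lines that join the 2 values of a mouse, and the mean and SD of the 4 mice beside them. The first 8 genes were higher in the population and the next 7 lower, with no overlap between the groups, and Omp overlapped.

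Calb2 (calretinin, a cytosolic calcium-binding protein) was at 3.66, 3.17, 4.00 and 1.78 UMIs per 10000 in mice 1 to 4, against 0.735, 0.805, 0.735 and 0.707 in the others, a log2 fold change of 2.12 ± 0.20 (adjusted p = 1.21e-21). It was detected in 51.8% of Olfr1297 neurons, in 10.4% of the others and in 1.36% of Mv2 cells. The groups were built unlike for this gene. The population kept its 4 neurons of the Calb2+ V. cluster, which gave 29 of its 91 Calb2 UMIs, and the others held no neuron of that cluster. The 52 neurons inside the Ventral cluster were at 2.44 against 0.742 over the summed neurons, and the call held in them alone. Ppp3ca, the catalytic subunit of the calcium-dependent phosphatase calcineurin, was at 2.66 ± 0.692 (SD, n = 4) against 1.42 ± 0.104 (log2 fold change 0.86 ± 0.20 SE), and its call was lost without mouse 2 or mouse 4 (adjusted p = 0.189 and 0.0588). It was also lost with DESeq2's test (adjusted p = 0.0941), against all other mature OSNs (log2 fold change 0.67, adjusted p = 0.0730) and in neurons thinned to 3000 UMIs (0.46, adjusted p = 0.957). Kirrel3, an immunoglobulin-type adhesion molecule of OSN axons, was at 1.22, 1.44, 1.44 and 1.78 against 0.390, 0.335, 0.275 and 0.396, a log2 fold change of 2.01 ± 0.32 (adjusted p = 2.92e-07). Negr1, a surface adhesion protein of the IgLON family, was at 1.02, 1.30, 1.12 and 0.444 against 0.342, 0.333, 0.417 and 0.340 (log2 fold change 1.49 ± 0.36, adjusted p = 0.00677), so that mouse 4 lay just above the others, and the call was lost without mouse 1 (adjusted p = 0.233) or mouse 2 (adjusted p = 0.303), with DESeq2's test (0.0703), in neurons with exactly 1 receptor detected (0.334) and in neurons thinned to 3000 UMIs (0.467). Efna3, a ligand of the ephrin receptors, was at 5.98 ± 1.43 against 3.85 ± 0.338 (log2 fold change 0.58 ± 0.13).

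Pth2, the neuropeptide TIP39, was at 6.11, 5.62, 3.84 and 6.21 UMIs per 10000 against 2.92, 2.74, 2.38 and 3.12, with the lowest mouse of the population above all others (log2 fold change 0.96 ± 0.14, adjusted p = 5.89e-09). Cadps2, which primes dense-core vesicles for release, was at 1.93 ± 0.698 (SD) against 1.16 ± 0.0470, a change that only just passed the test (log2 fold change 0.82 ± 0.22, adjusted p = 0.0373). Stoml3, a stomatin-like membrane protein of OSN cilia, was at 142, 125, 131 and 144 against 100, 91.5, 89.4 and 94.5 (log2 fold change 0.51 ± 0.08, adjusted p = 1.04e-07). Sult1d1, a sulfotransferase, was at 19.4 ± 2.54 (SD, n = 4) against 11.3 ± 1.54, with no overlap (log2 fold change 0.76 ± 0.09, adjusted p = 4.5e-13). These genes differed by less than 2-fold. Stoml3 and Sult1d1 were well expressed in both groups, whereas Cadps2 had a UMI in 57.1% of Olfr1297 neurons and 38.1% of the others. The others named among the higher genes were Cmip (log2 fold change 0.70 ± 0.11), the actin-nucleating Arp2/3 subunit Arpc4 (0.66 ± 0.15), Pyurf (1.13 ± 0.28) and the immediate early factors Jun (0.70 ± 0.18) and Jund (0.40 ± 0.11). Several of these calls were lost when 1 mouse was left out, with the folds still above 0. For Arpc4 this was so without mouse 3 (log2 fold change 0.49, adjusted p = 0.310) and for Cadps2 without mouse 1 (0.48, adjusted p = 0.990) or mouse 3 (0.83, adjusted p = 0.105). The fold of Pyurf was 1.09 to 1.15 without mouse 1, 2 or 4 (adjusted p from 0.0649 to 0.180), that of Jun 0.59 to 0.75 without mouse 1, 3 or 4 (adjusted p from 0.0666 to 0.289), and that of Jund 0.33 to 0.45 without each of the 4 in turn (adjusted p from 0.0871 to 0.437). Jun was also not called against all other mature OSNs (log2 fold change 0.49, adjusted p = 0.274) or in neurons with exactly 1 receptor detected (0.55, adjusted p = 0.386), and Pyurf not in the Olfr1297 neurons inside the cluster alone (1.06, adjusted p = 0.0585). With scaling factors from all genes tested, the calls of Arpc4, Cadps2, Jun and Jund were lost (adjusted p = 0.0526, 0.155, 0.122 and 0.467). Those of Cadps2 and Jund were lost as well without the filter on low counts (0.0879 and 0.0550) and without the replicate block (0.05005 and 0.110), that of Cadps2 in neurons with exactly 1 receptor (0.0577), and that of Jund with DESeq2's size factors (0.0771) and in the neurons inside the cluster alone (0.0552). The largest fold was that of 4930515B02Rik, an uncharacterised RNA, at 0.204, 1.01, 0.639 and 0.444 against 0.0620 to 0.0925 (log2 fold change 2.89 ± 0.60, adjusted p = 0.000352), which rested on 15 UMIs in 13 neurons and was not called without mouse 2 (adjusted p = 0.426).

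By adjusted p, the first genes called lower were S100a5 and Pcp4l1. S100a5, an EF-hand calcium-binding protein of OSNs, was at 80.5, 65.6, 77.8 and 69.9 UMIs per 10000 in the Olfr1297 neurons of mice 1 to 4, against 212, 186, 218 and 221 in the others, a log2 fold change of −1.53 ± 0.08 (SE, adjusted p = 1.48e-69). Every Olfr1297 neuron still had S100a5 transcripts: its UMIs per neuron ranged from 2 to 139 with a median of 27.5, against 0 to 1633 with a median of 70. Pcp4l1, which encodes a small protein, was at 3.05, 3.32, 3.52 and 3.11 against 14.1, 14.4, 18.6 and 16.6 (log2 fold change −2.29 ± 0.14, adjusted p = 7.2e-59), so that its 4 mice lay close together. Kirrel2, the adhesion molecule that is known to be complementary to Kirrel3 between OSN populations, was at 4.17, 1.87, 2.72 and 2.89 against 6.73, 7.30, 8.76 and 7.73 (log2 fold change −1.33 ± 0.15, adjusted p = 5.94e-16). Epha5, a receptor of ephrin-A ligands on axons, was at 2.44, 2.16, 2.56 and 1.78 against 6.09, 5.86, 6.82 and 6.70 (log2 fold change −1.48 ± 0.16, adjusted p = 3.08e-16). For all 4 genes the groups did not overlap. Epha7, another ephrin receptor, was at 0.252 ± 0.159 (SD, n = 4) against 0.805 ± 0.130 on 6 UMIs, and its call was lost without each mouse in turn (adjusted p from 0.0572 to 0.429). The call was also lost without the filter on low counts and in the neurons inside the cluster alone. Against all other mature OSNs and in neurons with exactly 1 receptor detected, Epha7 was not called either.

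Syt4, a synaptotagmin, was at 0.564 ± 0.502 (SD, n = 4) against 1.49 ± 0.136. Rtp1, which carries odorant receptors to the membrane, was at 2.48 ± 0.734 against 4.36 ± 0.423 (log2 fold change −0.74 ± 0.17), and Herpud1, a gene of the endoplasmic reticulum stress response, at 1.28 ± 0.363 against 3.03 ± 0.749 (−1.31 ± 0.22). The transcripts of the receptor were not low in these neurons, as given above, and its protein was not measured. Ebf1, a transcription factor of OSN differentiation that also acts on receptor genes, was at 8.45, 9.66, 7.99 and 7.55 against 12.4, 12.7, 12.6 and 12.3 (log2 fold change −0.58 ± 0.11, adjusted p = 6.46e-05). Its groups did not overlap. Id4, an inhibitor of basic helix-loop-helix factors, was at 2.13 ± 0.289 against 3.54 ± 0.144 (log2 fold change −0.77 ± 0.18), and Olig1, a basic helix-loop-helix factor, at 0.187 ± 0.186 against 1.02 ± 0.117 on 4 UMIs. The call of Syt4 was lost without mouse 1 (adjusted p = 0.293), that of Rtp1 without mouse 3 or 4 (0.0649 and 0.0588) and that of Id4 without mouse 1 or 2 (0.168 and 0.0892). Id4 was also not called against all other mature OSNs, and Rtp1 not in neurons with exactly 1 receptor detected.

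Of the genes called lower, 7 were not seen at all in the 275242 UMIs of the population: Rasl11a, Gm31557, Kcng1, Dhrs3, Nqo1, Avp and Plac8. Against the level that 3 UMIs over the whole population would give (0.109 per 10000), Rasl11a, a Ras-like GTPase, was at least 8.95-fold lower than its 0.975 ± 0.133 (SD, n = 4) in the others. The long non-coding RNA Gm31557 was at least 7.07-fold lower, Kcng1, a modifier subunit of potassium channels, at least 6.51-fold, Dhrs3, a retinaldehyde reductase, at least 5.22-fold, and Nqo1 at least 4.40-fold. The call of Dhrs3 was lost in neurons thinned to 3000 UMIs (adjusted p = 0.0821), and that of Nqo1 there (0.242) and with DESeq2's test (0.0610). Avp, the vasopressin precursor, was at 1.23, 0.0528, 0.250 and 0.541 in the others of mice 1 to 4, a wide spread, and the population with the highest level, Olfr1508, had 86.2 where the median population of the cluster had 0. Its call was lost without mouse 1 (adjusted p = 0.610), in which the others were highest. A further 5 genes had 1 UMI in the population, and the ratio of the others to the population was 31.2 for the protocadherin Pcdh10 (95% counting interval 5.60 to 1235), 19.1 for the complement regulator Cd55 (3.42 to 754), 14.2 for Tppp3 (2.55 to 563), 13.7 for the protocadherin Pcdh8 (2.45 to 542) and 13.2 for the transcription factor Nfia (2.36 to 521). Of these 5, the calls of Pcdh10 and Cd55 held without each mouse, whereas those of Tppp3, Pcdh8 and Nfia were lost without mouse 1 (adjusted p = 0.294, 0.246 and 0.248) and without 1 or more of the other mice. Pcdh8 and Nfia were also not called in neurons with exactly 1 receptor detected, and Nfia not against all other mature OSNs. The low values of Cd55 and Nqo1 were shared with most of the cluster: the median population was at 0, while the highest reached 11.6 and 12.1. Pcdh8 and Tppp3 had low medians of 0.127 and 0.139, and their highest populations reached 3.20 and 6.12. Both medians were above the 0.0363 of Olfr1297 over all its neurons, which ranked 98th and 108th from the top of 165 populations. For Gm31557 the median population was at 0.0465, under the level of 0.109 that the bound rests on, and the highest, Olfr1220, at 11.7, so that a level near 0 was common among populations of the cluster. For Rasl11a, Kcng1, Dhrs3 and Pcdh10 the median population was at 0.611, 0.601, 0.469 and 0.395.

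The gene lists chosen for this tissue gave counts that stand beside the 0.710% of all genes that were called. The lists were chosen with earlier results of these data known, so a higher share in a list is not a test of it. Of 17 activity-related genes tested, 3 were lower (S100a5, Pcp4l1, Kirrel2) and 2 higher (Calb2, Kirrel3), with a list median log2 fold change of −0.27, and the summed level was 86.9 to 102 in the population and 221 to 259 in the others, most of it from S100a5 alone (65.6 to 80.5 and 186 to 221). Of these, S100a5 and Kirrel2 are known to rise with OSN activity and Kirrel3 to fall. The activity of the neurons was not measured, and its part in these differences was not tested. The immediate early genes of the list were of low level, and Npas4, Arc and Egr2 were at 0 in the population. The immediate early factors Jun and Jund, counted in the list of the response to dissociation, were called higher, as given above. Of 21 axon guidance and sorting genes, Kirrel3 and Efna3 were higher and Kirrel2, Epha5 and Epha7 lower, with a median of −0.05. Of 28 adhesion and protocadherin genes, Negr1 was among the higher and Pcdh10 and Pcdh8 were lower. The lists around the 3 markers gave no further call in the same direction: of 8 pleiotrophin ligands and receptors only Ptn passed the test, of 10 ADAM metalloproteases only Adam28, and of 6 mesothelin-family and anchored surface proteins Mslnl was higher and Cd55 lower.

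Of 19 mature neuron and transduction genes, Stoml3 was higher and Rtp1 lower, with a median of 0.05, and the summed level was 434 to 459 in the population against 400 to 415 in the others. Stoml3 alone was at 125 to 144 and 89.4 to 100, and so carried much of that gap. Of 14 immature neuron genes Ebf1 was lower, and the summed level was 20.0 to 27.5 against 29.3 to 30.6. Ebf1 alone was at 7.55 to 9.66 and 12.3 to 12.7, and so carried much of that gap. The list median was −0.42 (−0.40 with the 1 tested gene at 0 UMIs at its bound). Of 11 genes of dorsal and ventral position, Nqo1, Tppp3 and Nfia were lower, with a median of −0.67 when genes at 0 UMIs were set at their bound. Of 9 genes that mark clusters of OSNs 7 were tested, of which Calb2 was higher and Pcdh10, Cd55, Tppp3, Pcdh8 and Dlg2 were lower, and Cd36 and Mustn1, which were not tested, were at 0. The study characterised the Ventral cluster itself by the absence of Calb2, Cd55, Dlg2 and Cd36. Of 19 genes tested in the list named calcium-binding proteins, S100a5 and Pcp4l1 were lower and Calb2 higher, and of 41 transcription factors Nfia, Id4 and Ebf1 were lower. Of 20 genes of receptor trafficking and stress feedback, Herpud1 and Rtp1 were lower. In the lists of 29 ion channels, 17 presynaptic and neuromodulator genes and 11 secreted signals, the calls were Kcng1 (lower), Syt4 (lower) and Ptn (higher). Of 11 genes of the response to dissociation, Jun and Jund were higher, the median was −0.73 (−0.45 with the 1 tested gene at 0 UMIs, Atf3, at its bound), and the summed level was 15.98 to 21.4 against 15.2 to 16.1, so that its lowest mouse lay within the range of the others; its part in these results was not tested.

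The mean of the other neurons covers many populations, so the level of each gene was also ranked over the 165 populations of the Ventral cluster with at least 10 neurons. Negr1 was highest in Olfr1297 (1.02 UMIs per 10000, median of the populations 0.317), 4930515B02Rik ranked 3rd, Pyurf 4th, Kirrel3 5th, Pth2 6th and Arpc4 7th. The first place of Negr1 rested on 28 UMIs, with Olfr1350 at 0.940 and Olfr1200 at 0.938 close behind. Over the 353 populations of every cluster Negr1 ranked 4th. The 3 markers were not the highest: Mslnl ranked 19th, Adam28 20th and Ptn 21st, behind maxima of 13.02 in Olfr1463, 4.39 in Olfr191 and 11.5 in Olfr1395. Of the 164 other populations, 66 had at least 50% of the Olfr1297 level of Adam28, 47 that of Ptn, 80 that of Mslnl, and 31 that of all 3, among them Olfr1301 and Olfr1280 of the same gene cluster. Calb2 ranked 14th, with a median of 0.102 over populations. From the lower end, Epha5 ranked 8th, Kirrel2 17th, S100a5 25th and Pcp4l1 32nd, so that 24 populations had less S100a5, the lowest of them at 7.70 where Olfr1297 was at 74.4 over all its neurons.

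**Figure D3:**
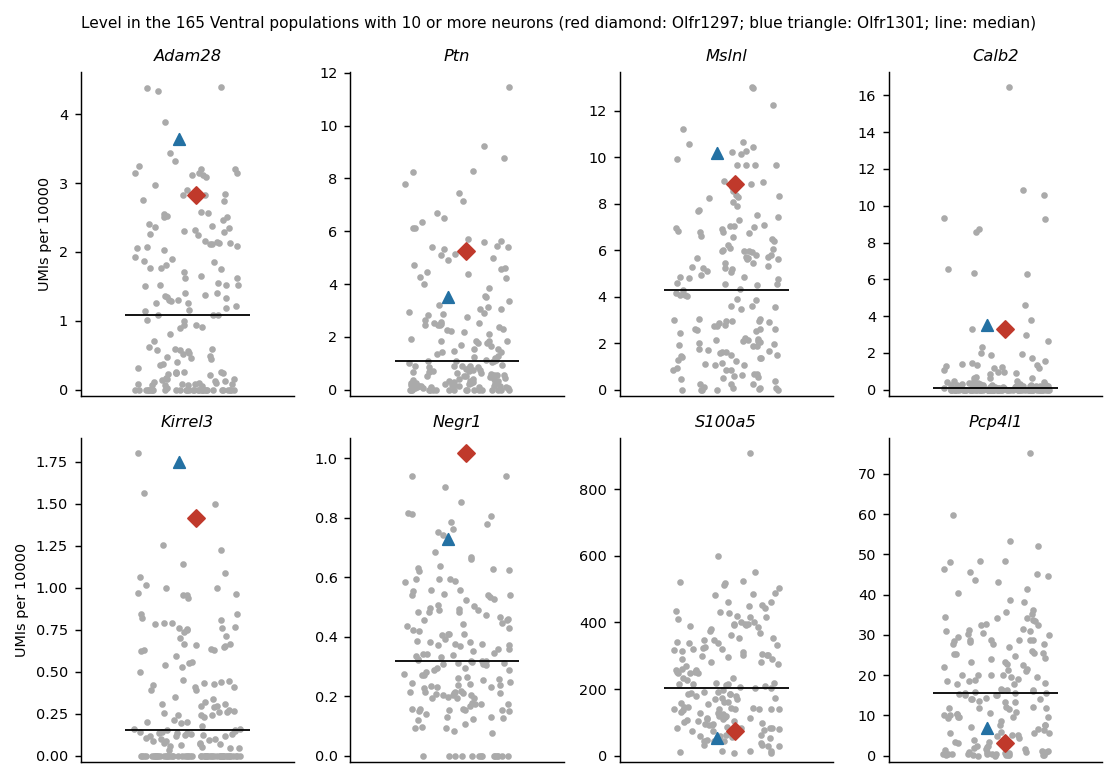
Levels of 8 genes in UMIs per 10000 (y axis) in the 165 populations of the Ventral cluster with at least 10 neurons, 1 grey point each, spread sideways at random, with the median as a line, Olfr1297 as a red diamond and Olfr1301 as a blue triangle. Olfr1297 lies at the top for Negr1, well above the median for the 3 markers, Calb2 and Kirrel3, and low for S100a5 and Pcp4l1.

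In a further fit, each of 52 other Ventral populations with at least 3 neurons in every mouse was entered as its own sum per mouse. The 4 sums of a population are repeats of it, and all sums come from the same 4 mice, but the fit, with the mouse as a block, took the 4 sums of a population as separate samples, so its p-values are too small as a test of 1 population among others. Of 1521 genes tested 9 were then called (0.592%), and 153 had an unadjusted p under 0.05. Among the 9, Ptn, Pth2, Ppp3ca, Sult1d1 and Ddx5 (an RNA helicase) were higher, and Epha5, Kirrel2 and the synaptic vesicle gene Syngr1 lower. Ptn had a log2 fold change of 1.93 (adjusted p = 0.00769). Folds of the markers Adam28 (1.14, adjusted p = 0.348) and Mslnl (1.04, adjusted p = 0.281), and those of S100a5 (−1.58, adjusted p = 0.188), Pcp4l1 (−2.32, adjusted p = 0.139) and Calb2 (2.00, adjusted p = 0.161), were close to those above and did not pass. Over the populations of the cluster S100a5 ranged from 7.70 to 909 and Calb2 from 0 to 16.4. Against all other mature OSNs of every cluster the fold of Calb2 turned to −0.16 (adjusted p = 0.894), whereas those of Adam28, Ptn, Mslnl and S100a5 were 1.49, 1.02, 1.26 and −1.71 (adjusted p = 3.76e-10, 9.1e-10, 8.24e-24 and 1.73e-98).

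Over the same 165 populations the genes most like Adam28 were Mslnl (Spearman rho 0.861), Nrp1 (0.845), Tuba4a (0.844), Faim2 (0.808) and Cadps2 (0.787), and those most like Mslnl were Faim2 (0.876), Adam28 (0.861), Tuba4a (0.820), Nrp1 (0.809) and Stoml3 (0.806). Ptn had weaker matches, with Mslnl (0.671), Fstl5 (0.664), Cmip (0.643), Faim2 (0.625) and Tmbim6 (0.614). S100a5 was most like Pcp4l1 (0.900), Dlg2 (0.777), Lrrc3b (0.743), Trim45 (0.740) and Kirrel2 (0.733), and Calb2 was most like Ppp3ca (0.644). These are descriptions over populations that share the same 4 libraries and differ in depth. Of these partners Faim2 (12.9 ± 1.12, SD, n = 4, against 9.43 ± 0.581), Cmip, Cadps2 and Stoml3 were among the genes called higher in the population, and Dlg2 (0.688 ± 0.289 against 1.80 ± 0.229) and Lrrc3b (0.727 ± 0.494 against 2.96 ± 0.225) among those called lower.

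The 4 neurons in the Calb2+ V. cluster came from mice 2, 3 and 4 (1, 2 and 1) and held 21311 UMIs in all. They carried more Calb2 than the 52 in the Ventral cluster, 13.6 against 2.44 UMIs per 10000 over the summed neurons, which is the gene that names their cluster, and all 4 had a Calb2 UMI. The 52 neurons alone were still above the 0.742 of the other Ventral neurons. The 3 markers and S100a5 were near the level of the 52, with Adam28 at 3.75 against 2.76, Ptn at 5.63 against 5.24, Mslnl at 9.85 against 8.78 and S100a5 at 60.1 against 75.6, on 8, 12, 21 and 128 UMIs. Kirrel2 was at 0.938 against 3.23, on 2 UMIs. No test was made on 4 neurons. Without them, 27 genes were called higher and 44 lower. As a measure of how alike the neurons were, distances on 15 principal components of genes other than receptors were taken within each mouse. The median distance between Olfr1297 neurons was 0.859, 1.00, 0.865 and 0.756 of that to the other neurons in mice 1 to 4, so in mouse 2 they were no closer to each other than to the rest. The mean of 0.871 was the 19th smallest among 53 populations with at least 3 neurons in every mouse, which ranged from 0.711 to 1.35. Olfr1297 entered with its 4 neurons of the Calb2+ V. cluster, 1 of them in mouse 2. The other populations entered with their Ventral neurons only, so the rank compares unlike sets. Of the 10 nearest neighbours of an Olfr1297 neuron, 10.0%, 6.25%, 4.00% and 6.36% were of the same population, where its share of the neurons was 1.52%, 1.32%, 1.20% and 0.653%.

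The neurons of Olfr1301, the closest receptor by protein, were also Ventral, and the comparison asked how far the profile was shared. This population had 12 neurons, 3, 1, 3 and 5 in mice 1 to 4, which allowed 583 genes to be tested, and 7 were called (1.20%), 3 higher (0.515%) and 4 lower (0.686%) in Olfr1297 neurons. Without mouse 4 none was called, and 53 genes had an unadjusted p under 0.05; without mouse 1, 2 or 3 the calls were 5, 12 and 10. None of the 3 markers passed: Adam28 was at 3.68, 3.13, 4.96 and 2.60 UMIs per 10000 in Olfr1301 neurons (log2 fold change of Olfr1297 −0.32 ± 0.38 SE, adjusted p = 0.832), Mslnl at 12.1, 9.39, 11.4 and 7.79 (−0.21 ± 0.22, adjusted p = 0.818) and Ptn at 4.20, 1.57, 1.49 and 5.20 (0.67 ± 0.35, adjusted p = 0.519). Their ranges overlapped those of Olfr1297. Within the same mouse, Adam28 was lower in Olfr1297 neurons in 4 of 4 mice, Mslnl lower in 3 and Ptn higher in 3. S100a5 was at 74.6, 14.1, 52.1 and 49.8, low as in Olfr1297 neurons but below them in each of the 4 mice (0.64 ± 0.19, adjusted p = 0.1). Pcp4l1 was at 5.26, 4.70, 8.93 and 7.36 (−1.03 ± 0.30, adjusted p = 0.0885), above all 4 mice of Olfr1297. Calb2 ranged from 1.05 to 12.5. Stoml3 was at 209, 186, 159 and 147, also above all 4 mice of Olfr1297, and did not pass (−0.31 ± 0.14, adjusted p = 0.406). With so few neurons a p that misses the threshold does not show that the populations were alike.

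The 3 genes higher in Olfr1297 than in Olfr1301 neurons were Fetub, a secreted protease inhibitor of the fetuin family (4.96 ± 0.749, SD, n = 4, against 0.511 ± 0.590; log2 fold change 3.05 ± 0.55 SE, adjusted p = 0.00198), Stmn4, a stathmin that binds tubulin (8.36 ± 1.66 against 2.26 ± 2.14; 1.70 ± 0.37, adjusted p = 0.00801), and Tmsb4x, the actin-binding thymosin beta 4 (99.5 ± 10.6 against 59.1 ± 10.0; 0.82 ± 0.15, adjusted p = 0.00202). Fetub was lower in Olfr1297 than in the other Ventral neurons, where it was at 8.25 ± 0.329. The 4 lower genes were Ano2, the calcium-activated chloride channel of olfactory cilia (3.12 ± 0.524 against 8.17 ± 1.43; −1.42 ± 0.29, adjusted p = 0.00436), Ckb, the brain creatine kinase (36.3 ± 2.36 against 68.5 ± 15.1; −0.83 ± 0.15, adjusted p = 0.00198), Tmbim6 (18.4 ± 6.23 against 32.3 ± 6.58; −0.78 ± 0.17) and Tmem64 (1.38 ± 0.571 against 4.79 ± 0.982; −1.71 ± 0.43). The mice of the populations overlapped for Tmbim6, and mouse 2 gave a single Olfr1301 neuron.

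The neurons of Olfr1305, the next receptor gene by position with at least 10 neurons, were in the cluster named Cd36+ V. and had 14 neurons, 2, 8, 2 and 2 in mice 1 to 4. Of 745 genes tested, 67 were called (8.99%), 41 higher (5.50%) and 26 lower (3.49%) in Olfr1297 neurons. Adam28, Ptn and Mslnl had 0 UMIs in all 4 mice of Olfr1305; against 3 UMIs over that population, Mslnl was at least 27.5-fold higher in Olfr1297 neurons, Ptn at least 16.1-fold and Adam28 at least 8.61-fold. Calb2 was also at 0 there, which makes it at least 9.81-fold higher in Olfr1297 neurons; it and Adam28 were too low to be among the genes tested. Cd36, a fatty acid transporter that names the Olfr1305 cluster, was at 15.4, 7.91, 10.8 and 10.6 in Olfr1305 neurons and at 0 in Olfr1297 neurons, where it was at least 103-fold lower. S100a5 was at 486, 400, 439 and 531 in Olfr1305 neurons (log2 fold change −2.73 ± 0.13, adjusted p = 7.07e-11), and Pcp4l1 at 23.8, 26.2, 25.4 and 30.9 (−3.07 ± 0.18, adjusted p = 2.11e-09). The populations did not overlap for either gene. Among genes of transduction and cilia, Stoml3 was at 28.2 ± 6.23 (SD, n = 4) in Olfr1305 neurons (log2 fold change 2.13 ± 0.16), the cyclic nucleotide-gated channel Cnga2 at 1.83 ± 1.02 against 9.11 ± 0.983 (2.01 ± 0.28), Adcy3 at 4.72 ± 1.97 (1.30 ± 0.24) and Ano2 at 0.626 ± 0.544 (2.04 ± 0.48). Omp, the marker of mature OSNs, was also lower in Olfr1305 neurons, at 50.7 ± 11.9 against 76.5 ± 4.76 (0.54 ± 0.14, adjusted p = 0.0215 with edgeR). The 2 populations lie in different clusters, so this comparison cannot be told apart from that of the clusters.

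**Figure D4:**
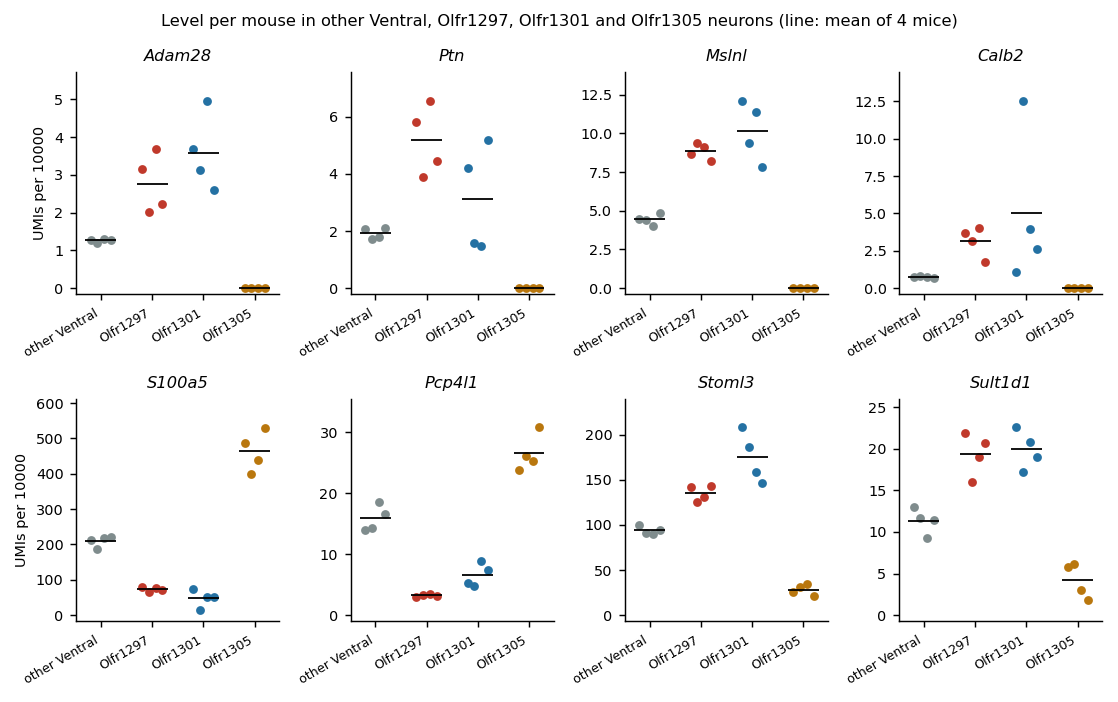
Levels of 8 genes in UMIs per 10000 (y axis, from 0), with 1 point per mouse and the mean as a line, in the other Ventral neurons, Olfr1297, Olfr1301 and Olfr1305 neurons. Olfr1297 and Olfr1301 overlap except for Pcp4l1 and Stoml3, which are higher in Olfr1301, and Olfr1305 has 0 UMIs of Adam28, Ptn, Mslnl and Calb2 and the highest S100a5 and Pcp4l1.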

How the data were processed

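Single-cell libraries of the main olfactory epithelium of 4 mice were analysed from the deposited raw UMI counts per gene and barcode, which the authors made with Cell Ranger 6.0.1 (submitters' processing notes) on GRCm38 with re-annotated 3′ ends of receptor genes. Cell types, clusters, receptor identities and, per cell, the percent of mitochondrial UMIs and the ratio of UMIs to genes were taken from the authors' deposited cell table; the ratio was only checked. No doublet caller was run here, and neurons with several receptors above the study's threshold have no identity. The population and the gene lists were chosen with earlier results of these data known.

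Counts were summed per mouse and group, and genes other than 1430 receptor genes were tested with edgeR 4.0.16 (R 4.3.3), a quasi-likelihood fit with the mouse as a block, filterByExpr and Benjamini-Hochberg adjustment at 0.05. TMM factors came from the 736 genes expected at 10 or more counts in the smallest sum, a choice made after TMM over all genes was found biased on simulated data. In the comparisons with Olfr1301 and Olfr1305, and with each population as its own sum, all genes tested were used. As Olfr1301 was closest both by protein (BLOSUM62 global alignment) and by position, the next population by position was taken for the latter. DESeq2 1.42.0 was an alternative. SE is the log2 fold change divided by the root of F. Deviations from the group means correlated in the sums of the same mouse at 0.193, 0.368, 0.00104 and 0.115 over 1306 genes; the pairing comes from the shared animal and library. Of 21809 barcodes, 54 occurred in more than 1 library and none of these was an Olfr1297 neuron. Named genes were the 3 markers, the 15 largest changes among genes called higher and the 10 among those called lower (same direction in 4 mice, at least 0.5 UMIs per 10000 in the group with more), up to 4 called members of each list, and Omp, Adcy3, Nqo1 and Nfix. Other genes named (Efna3, Faim2, Dlg2, Lrrc3b, Ddx5, Syngr1, Plac8 and those of the related populations) were called or matched genes chosen after their values were seen. Intervals of shares and ratios cover counting error only. Results for some genes are not reported here.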

Additional observations from a re-analysis of the deposited data

Results flagged for a closer look

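Of 85 groups of 4 mice tested for a mouse that stood apart from the other 3 (Dixon's test), 9 were outlying. Of these, 5 were the single mouse with the single UMI of a gene in the Olfr1297 neurons, namely Pcdh10 in mouse 1 (0.102 UMIs per 10000), Cd55 in mouse 4 (0.222), Tppp3 in mouse 3 (0.160), and Pcdh8 and Nfia in mouse 2 (both 0.144). Id4 was at 2.56 in the Olfr1297 neurons of mouse 3, above the 1.93 to 2.02 of the other mice. In the other Ventral neurons, Negr1 was at 0.417 in mouse 3, Olig1 at 1.19 in mouse 3 and Pcdh8 at 0.555 in mouse 2.

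UMIs of Olfr1297 were also found outside its population. The share of barcodes with at least 1 was 0.0566% in Mv2 cells, which should lack the receptor. That share rests on 1 of 1768 cells, and its own exact 95% interval reaches 0.315%. The shares were 0.462% in iOSN1 cells (4 of 866, of which 1 had at least 10 UMIs), 0.298% in iOSN2 cells (3 of 1006, of which 1 had at least 10), both immature neurons, and 0.824% in mature neurons without a single receptor identity (6 of 728, all with at least 10). The exact 95% intervals of these 3 classes start at 0.126%, 0.0615% and 0.303%, above the Mv2 share but below the upper end of its interval. The median depth was 5081 UMIs in Mv2 cells and 6830.5, 7301.5 and 5632.5 in these classes. The share was also above that of Mv2 cells, with intervals that include it, in 1 of 202 globose basal cells (0.495%), 1 of 544 HBC2 cells (0.184%), 7 of 5950 removed barcodes (0.118%) and 7 of 9735 mature neurons of another identity (0.0719%). The difference between the classes was not tested.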

How the results depend on the processing

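Of the 41 named genes called, 8 kept their call in each alternative that could be run, 25 without each mouse in turn, and 23 with DESeq2's test. Against 29 genes higher and 43 lower in Olfr1297 neurons, DESeq2's test gave 14 and 20, each other population as its own sum 5 and 4, and thinning to 3000 UMIs 15 and 19. TMM over all genes tested, run as an added alternative, gave 14 and 84. The plan named TMM with no restriction on genes, and the main scaling from 736 genes was chosen later. The balance of higher and lower calls thus depended on that later choice. Without 1 mouse there were 18 to 26 higher and 32 to 38 lower. Without the replicate block there were 26 and 41, and 3 named calls were lost (Avp, Cadps2 and Jund). Calb2 changed direction against all other mature neurons (−0.16), and Nfix, not called before, was then higher (0.49, adjusted p = 0.0421 with edgeR). For Olfr1301, the 7 calls became 4 with DESeq2's test, 13 with no filter and 11 without the replicate block, and 0 to 12 without 1 mouse (0 without mouse 4). For Olfr1305, the 67 calls became 43 with DESeq2's test, and 48 to 86 without 1 mouse. The cause of these changes was not tested, other than that leaving out a mouse and thinning use fewer counts. Depth limits the population's sums to 45054 to 98263 UMIs, at which 336 of the 10146 genes tested had 0 UMIs.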

Other observations

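Outside the population, 10 barcodes held at least 10 UMIs of Olfr1297. Of these, 6 were mature neurons in which another receptor was also abundant, among them Olfr655 in 2 neurons of mouse 2. The highest of the 10, with 114 Olfr1297 UMIs each, were an iOSN2 cell of mouse 3 with no other receptor and an iOSN1 cell of mouse 2 with 43 UMIs of Olfr1487. The iOSN2 cell had 62 UMIs of Omp, 10 of Ptn, 7 of Mslnl and 0 of Adam28, and its S100a5 was at 9.70 UMIs per 10000. A barcode labelled as a globose basal cell (mouse 4) had 42 Olfr1297 UMIs and 25 of Omp.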
